A study of Mus musculus with 18 samples.

Results

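The genes described here are 10 cytokines and cytokine receptors, *Tslp*, *Crlf2*, *Il7*, *Il7r*, *Il33*, *Il1rl1*, *Il6*, *Lif*, *Il6st* and *Osmr*. They were taken by gene symbol from a table of 28856 transcript clusters, of which 25254 carry a symbol. Each of the 10 is represented by a single transcript cluster, so a rule that keeps the cluster of highest mean signal over the 18 arrays left nothing out. The set was chosen by the difference of *Tslp* between mutant and wild type mesangial arrays, which had already been measured, and by membership of the same cytokine and receptor families. The values come from glomerular cells of mice homozygous for a *Cd2ap* mutation, a mouse model of focal segmental glomerulosclerosis, and from wild type controls, all 5 weeks of age. Mesangial cells were sorted by FACS through a *Meis1-GFP* transgene, endothelial cells through *Tie2-GFP* and podocytes through a GFP transgene of their own, so every group carries a GFP reporter, and reporter and cell type cannot be told apart. Per cell type there were 3 mutant and 3 wild type arrays by the labels, which the series record calls biological triplicates, and the arrays of a group are called A, B and C here by their place among the deposited columns. The column names mark the mesangial controls as +:-, while their sample records read control and wild type, so whether these controls were heterozygous is not known. The *Cd2ap* signal is not a clear check of the labels: in mesangial arrays it was 829 ± 37.6 (SD, n = 3) for mutants and 1027 ± 101 (SD, n = 3) for wild type, and it was 1498 ± 17.6 (SD, n = 3) and 1775 ± 295 (SD, n = 3) in podocytes, and 926 ± 37.5 (SD, n = 3) and 819 ± 53.9 (SD, n = 3) in endothelial cells, and all directions given here depend on the labels.

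The signals are linear RMA intensities, with array medians of 62.8 to 71.6 and 9697 to 10097 transcript clusters per array reaching 100, the minimum used here for a test. RMA values do not reach 0, so a gene that is not expressed shows a low constant signal. The sorted cells carried their own markers, with a summed signal of 8 mesangial markers of 9019 to 12859 in mesangial arrays, of 8 podocyte markers of 12488 to 15211 in podocyte arrays and of 8 endothelial markers of 15142 to 17569 in endothelial arrays. Several arrays also carried markers of other cells. Wild type mesangial array C had summed podocyte, endothelial and erythroid markers of 3838, 7678 and 7253, where wild type arrays A and B had at most 1079, 2699 and 584. Mutant mesangial array B had the highest sum of 12 leukocyte markers of all arrays, at 2352. In podocytes the mesangial markers summed to 4915 to 6042 in wild type and 1141 to 4429 in mutant arrays, and the endothelial markers to 4332 to 5754 and 762 to 2580. The mesangial list holds *Ptn*, which the paper reports as strongly expressed in wild type podocytes and lower in mutant ones. The smooth muscle and juxtaglomerular markers summed to 1635 to 1780 in wild type and 1322 to 4005 in mutant podocyte arrays.

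Thymic stromal lymphopoietin, encoded by *Tslp*, and interleukin 33, encoded by *Il33*, are alarmins that stromal and barrier cells release and that act on dendritic cells, innate lymphoid cells and mast cells. TSLP binds a receptor made of CRLF2 and the IL7 receptor chain IL7R, which IL7 uses together with the common gamma chain, and interleukin 33 binds ST2, the product of *Il1rl1*. Interleukin 6, LIF and oncostatin M signal through gp130, the product of *Il6st*, paired with receptor chains of their own such as LIFR and OSMR, and through Janus kinases and STAT3. Mesangial cells are stromal cells of the glomerular tuft and are known to produce and to respond to interleukin 6.

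Of the 10 genes, 8 had an entry among the promoter sequences of RefSeq (build GRCm38.p6). Those of *Osmr*, *Il6st* and *Il33* are printed. Of the 8, *Osmr* and *Il33* had a genotype difference over 1.5-fold in at least 1 cell type, and *Il6st* differed between wild type cell types. Each run holds the 250 bases before an annotated transcript start, 5′ to 3′, with matches of the motifs below in capitals. *Osmr* lies at chr15:6874314-6874563, minus strand, *Il6st* at chr13:112463820-112464069, plus strand, and the starts of *Il33* at chr19:29924863-29925112, plus strand and chr19:29945540-29945789, plus strand.
Osmr: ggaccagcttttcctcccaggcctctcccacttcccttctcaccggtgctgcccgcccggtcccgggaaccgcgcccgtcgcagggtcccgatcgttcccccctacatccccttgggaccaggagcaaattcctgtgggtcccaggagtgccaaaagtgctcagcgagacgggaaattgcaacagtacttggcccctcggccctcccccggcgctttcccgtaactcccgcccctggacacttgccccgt
Il6st: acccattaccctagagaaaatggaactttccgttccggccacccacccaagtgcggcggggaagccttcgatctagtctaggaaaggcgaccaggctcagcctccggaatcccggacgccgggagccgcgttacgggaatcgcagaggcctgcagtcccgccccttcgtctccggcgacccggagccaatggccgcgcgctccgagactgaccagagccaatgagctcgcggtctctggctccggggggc
Il33, upstream start: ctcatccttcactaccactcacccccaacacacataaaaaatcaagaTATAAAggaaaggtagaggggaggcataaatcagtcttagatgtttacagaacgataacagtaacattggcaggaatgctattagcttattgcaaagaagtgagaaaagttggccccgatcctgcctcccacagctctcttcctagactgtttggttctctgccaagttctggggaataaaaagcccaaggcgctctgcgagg
Il33, downstream start: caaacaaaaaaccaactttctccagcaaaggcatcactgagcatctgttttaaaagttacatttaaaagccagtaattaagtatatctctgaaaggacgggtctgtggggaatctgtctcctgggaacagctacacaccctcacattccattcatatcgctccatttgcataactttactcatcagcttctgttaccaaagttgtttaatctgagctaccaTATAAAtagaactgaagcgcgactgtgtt
On both strands, TTCNNNGAA, the palindrome bound by STAT proteins, TGANTCA, the AP-1 site, and TATAAA, the TATA box, were searched. TTCNNNGAA is in 7.02% of the 32851 promoters of the same length, TGANTCA in 6.75% and TATAAA in 12.4%. The printed promoters of *Osmr* and *Il6st* hold none of these motifs, and each *Il33* start has a single TATAAA, which begins 203 and 29 bases before the start. Among the promoters not printed, that of *Il7r* has 1 match of TTCNNNGAA, those of *Il6* and *Lif* have 1 match of TGANTCA each, and those of *Crlf2* and *Il1rl1* have no match. A match is a description of the letters and says nothing on binding.

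Across the 18 arrays the 10 genes fell into 3 kinds. *Il6st* was at 100 or more in 18 arrays and *Osmr* in 17. *Tslp* and *Crlf2* reached that signal in 3 and 5 arrays. *Il7*, *Il7r*, *Il33*, *Il1rl1*, *Il6* and *Lif* never reached it, and *Il7*, *Il7r*, *Il1rl1*, *Il6* and *Lif* stayed under the array median in all 18. Because a gene with no array at 100 was left out of the test, 3 of the 10 entered each comparison of the genotypes: *Tslp*, *Il6st* and *Osmr* in mesangial cells, and *Crlf2*, *Il6st* and *Osmr* in podocytes and in endothelial cells. Levels of different genes come from different probes and are not compared.

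**Figure D1:**
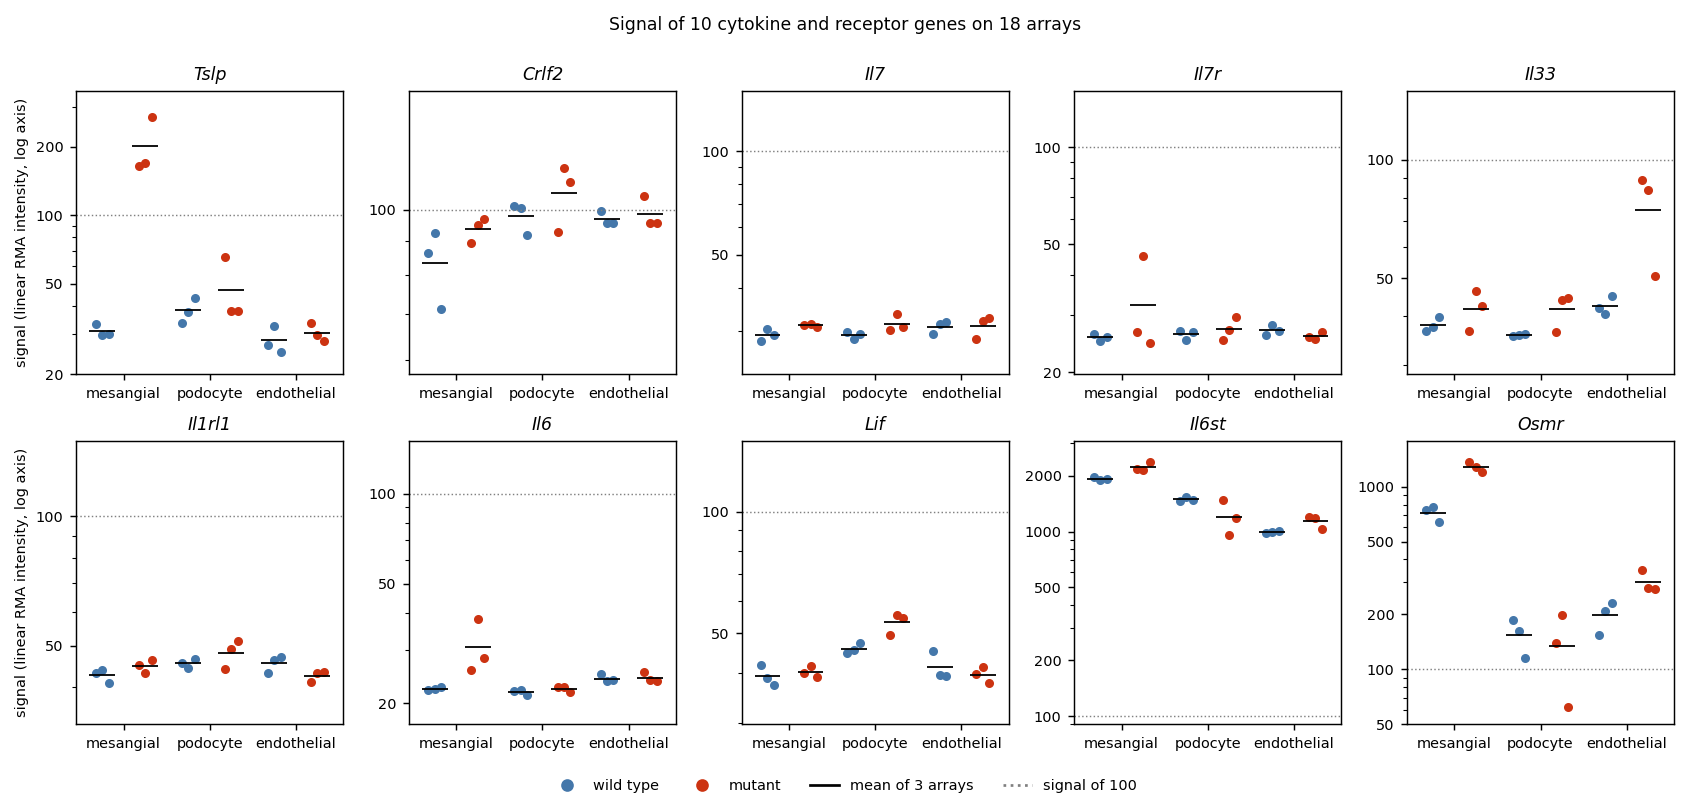
Linear signal on a log axis of the 10 genes, with 1 panel per gene, 1 point per array (blue wild type, red mutant), a bar at the mean of 3 arrays and a dotted line at a signal of 100. *Tslp* passes 100 in the 3 mutant mesangial arrays alone, *Osmr* and *Il6st* are highest in mesangial arrays, and *Il33* is highest in mutant endothelial arrays, where it stays under 100.

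*Tslp* was at a signal of 165.2, 168.8 and 271.2 in the 3 mutant mesangial arrays and at 33.3, 29.9 and 30.1 in the wild type ones. No other array went above 65.6, and the lowest mutant mesangial array was far above it. The log2 difference was 2.66 (standard error 0.20), a 6.32-fold increase, with rank 4 by increase among the 11457 transcript clusters tested. This change was known from an earlier reading of these arrays when the genes were chosen, so it is a description and no p-value is given. Leaving out each of the 6 arrays in turn gave 2.43 to 2.78, and leaving out mutant array B and wild type array C together gave 2.75. In RNA pooled from sorted cells, fewer cells of a type and less RNA per cell cannot be told apart. Beside this change, the smooth muscle and juxtaglomerular markers were higher in the mutant mesangial arrays, at a summed signal of 4654 to 5411 against 3526 to 3837, with 2 of 6 called higher. The mesangial markers were lower, at 9019 to 9946 against 11977 to 12859, with 2 of 8 called lower. The podocyte markers summed to 853 to 915 against 929 to 3838. Of these 8 markers 1 was called lower, *Wt1*, at a log2 difference of -0.62 (adjusted p = 0.0728 by limma). The paper reports *Wt1* expression in mesangial cells themselves, lower in mutants, and does not ascribe it to podocytes. Of the 8 endothelial markers 2 were called lower, *Ehd3* at a log2 difference of -0.98 (adjusted p = 0.0121 by limma) and *Tek* at -1.19 (adjusted p = 0.0497 by limma), while their sums, at 2163 to 2514 in mutant and 2310 to 7678 in wild type arrays, overlapped. Of the 4 fibroblast markers tested 1 was called higher, *Dcn*, at 1.26 (adjusted p = 0.0949 by limma), and the sums, at 1498 to 1686 and 1481 to 1630, overlapped. The sums of tubule and parietal markers, at 708 to 816 in mutant and 576 to 992 in wild type arrays, overlapped too, with 1 of the 4 tested called higher, *Cldn1*, a claudin of parietal epithelial cells, at a log2 difference of 1.09 (adjusted p = 0.0497 by limma). The *Cldn1* signals were 188.0, 193.4 and 313.9 in mutant arrays A, B and C, the order of *Tslp* in these arrays. The smooth muscle and juxtaglomerular sums of the mutant arrays, 4654, 5279 and 5411, had this order as well. In wild type arrays *Cldn1* was at 108.6, 117.4 and 92.7, another order than that of *Tslp*. The others tested were *Krt8* at 0.27, *Slc34a1* at -0.15 and *Umod* at -0.71. Without a minimum 4 of the 8 tubule and parietal markers were higher in mutants, with a median of -0.06. In podocytes, where *Tslp* was low, *Cldn1* was at 138.4 to 503.0. The part of these cells in the *Tslp* signal was not tested.

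In the other sorted cells *Tslp* stayed low. The podocyte arrays gave 65.6, 37.8 and 38.0 in mutants and 33.6, 37.6 and 43.4 in wild type, and the endothelial arrays 33.7, 29.8 and 27.9 against 26.9, 32.7 and 25.0. The genotypes overlapped in both. Without a signal minimum the log2 differences were 0.26 (standard error 0.24, adjusted p = 0.717 by limma) in podocytes and 0.12 (standard error 0.12, adjusted p = 0.663 by limma) in endothelial cells. Mutant podocyte array A, with the highest *Tslp* of the podocyte arrays, also had the highest sum of mesangial markers among the mutant podocyte arrays, at 4429 against 2965 and 1141; the part of mesangial RNA in it was not tested. The genotype effect on *Tslp* was 2.40 lower in podocytes (standard error 0.30) and 2.54 lower in endothelial cells (standard error 0.30) than in mesangial cells on the log2 scale. These rest on the same mesangial arrays and are given as a description.

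The receptor chains for TSLP showed no like pattern. *Crlf2* was at 89.4, 95 and 96.9 in mutant and 86.2, 92.4 and 71.3 in wild type mesangial arrays, under the minimum in all 6. In podocytes it was at 92.6, 115.2 and 110.0 against 101.2, 100.5 and 91.7, and in endothelial cells at 104.9, 95.6 and 95.5 against 99.7, 95.5 and 95.6, where mutant array A alone reached the minimum. The whole range over 18 arrays was 71.3 to 115.2 and the genotypes overlapped in each cell type. The log2 differences were 0.11 (standard error 0.13, adjusted p = 0.736 by limma) in podocytes and 0.02 (standard error 0.09) in endothelial cells. The endothelial value is a description without a p-value, because *Crlf2* entered there through mutant array A alone. *Il7r* lay between 24.6 and 29.6 in 17 arrays. The exception was mutant mesangial array B, at 45.8. *Il7*, the cytokine that shares this chain with TSLP, was at 28.0 to 33.6 in all 18 arrays and differed by at most 0.11 on the log2 scale between genotypes.

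*Il33* stood apart in the endothelial cells. The mutant arrays gave 88.8, 83.7 and 50.6 and the wild type arrays 42.1, 40.5 and 45, while the 12 arrays of the other cells lay between 35.6 and 46.3. Every mutant endothelial array was above every wild type one, and mutant array C was close to the wild type level. All of these signals are under 100, so the gene was not tested in the main comparison. Without a signal minimum its log2 difference was 0.76 (standard error 0.21, unadjusted p = 0.00964, adjusted p = 0.199 by limma), which passes the screen used here (a fold change over 1.5 together with unadjusted p under 0.05) and not the adjusted threshold. Without a minimum the screen called 1.52% of all transcript clusters here, 2.13% in mesangial cells and 2.19% in podocytes, and no other gene of the 10 that lay under the minimum passed it. In mutant endothelial arrays A, B and C the leukocyte markers had the same order, with sums of 1455, 1036 and 794. The sums of wild type arrays A, B and C were 726, 841 and 913, another order than that of *Il33*. Among the leukocyte markers *Tyrobp*, an adaptor of myeloid cells, was at 475.3, 274.3 and 151.0 in mutant and 107.9, 179.5 and 200.6 in wild type arrays. Of the 4 leukocyte markers tested, 0 were called at this screen, and the part of leukocytes in the *Il33* signal was not tested. The receptor gene *Il1rl1* stayed between 41.0 and 51.2 in all 18 arrays, with a log2 difference of -0.10 (standard error 0.06, adjusted p = 0.432 by limma without a minimum) in endothelial cells.

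The gp130 ligands were low. *Il6* was at 25.8, 38.1 and 28.2 in mutant and 22.1, 22.2 and 22.7 in wild type mesangial arrays, and between 21.2 and 25.4 in the other 12 arrays. All 3 mutant mesangial arrays lay above all others, at signals well under 100. Without a minimum the log2 difference was 0.44 (standard error 0.14, adjusted p = 0.25 by limma). The highest value came from mutant array B, which also had the highest *Il7r* signal and the highest leukocyte sum, with *Tyrobp* at 1261.1 and *Ptprc* at 361.1 against at most 522.8 and 282.6 in the other mesangial arrays. The leukocyte sums were 819 and 758 in mutant arrays A and C, and 757, 639 and 1680 in wild type arrays A, B and C. By the mean log2 signal of the same 12 markers, wild type array C lay above mutant array B, at 6.66 against 6.62. The smooth muscle, juxtaglomerular and mesangial marker sums also differed between these arrays, as given beside *Tslp*. The part of leukocytes and of these cells in the *Il6* signal was not tested. *Lif* had its highest signals in mutant podocytes, at 49.7, 55.7 and 54.7 in mutant and 44.6, 45.4 and 47.3 in wild type arrays. Its log2 difference there was 0.22 (standard error 0.07, adjusted p = 0.38 by limma without a minimum), and it lay at 37.2 to 45.3 in the other cells. In mutant podocytes 7 of 8 endothelial and 4 of 8 mesangial markers (*Itga8*, *Pdgfrb*, *Meis1*, *Ptn*) were called lower. Called higher were 2 of 5 smooth muscle and juxtaglomerular markers tested (*Ren1*, *Acta2*), 2 of 6 tubule and parietal ones (*Cldn1*, *Pax8*) and 1 of 6 leukocyte ones. The part of these cells in the *Lif* signal was not tested.

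**Figure D2:**
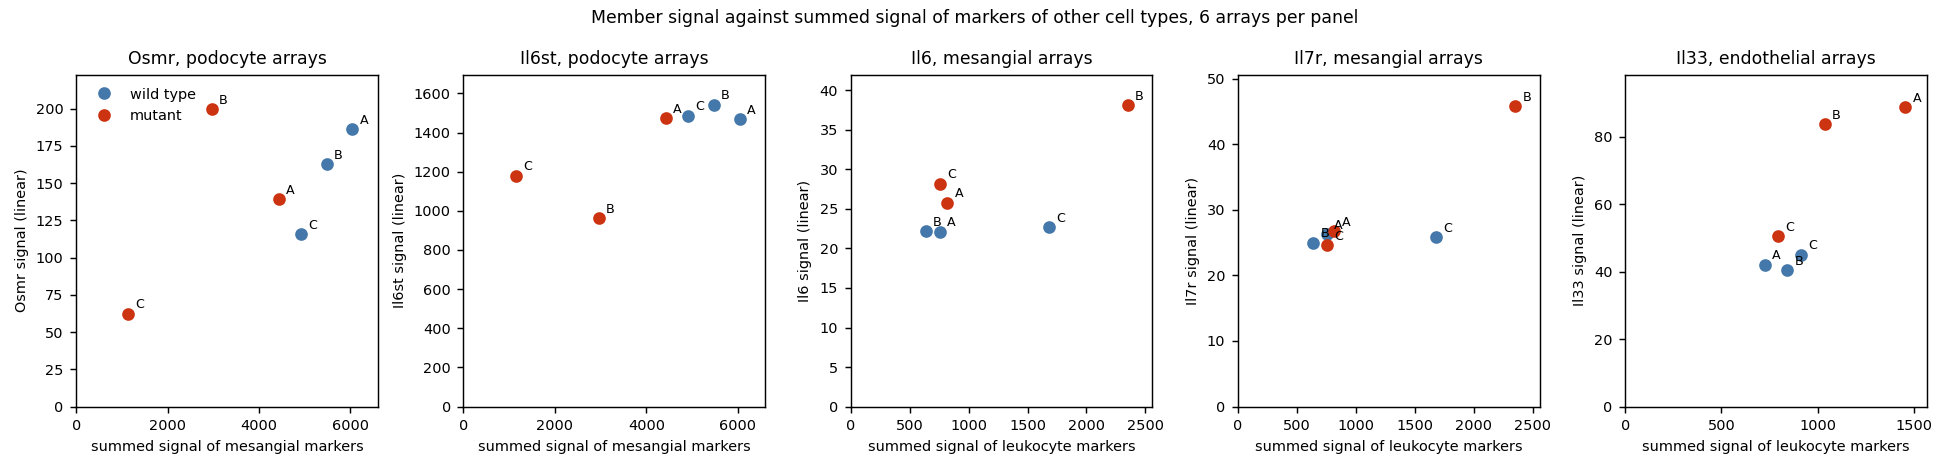
Linear signal of a gene (vertical axis) against the summed linear signal of a marker list (horizontal axis) on the 6 arrays of a cell type, wild type in blue and mutant in red, with the array letter beside each point. Mutant podocyte array C has the lowest mesangial markers (1141) and the lowest *Osmr*, mutant mesangial array B has the highest leukocyte markers (2352) with the highest *Il6* and *Il7r*, and the endothelial arrays with the highest *Il33* are those with the highest leukocyte markers.

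*Osmr*, the oncostatin M receptor chain, had the largest difference in mesangial cells among the 5 receptor genes of the 10. Its signal was 1378.0, 1284.3 and 1206.2 in mutant mesangial arrays and 744.9, 772.1 and 645.2 in wild type ones, so the genotypes did not overlap and the gap was wider than the range within either. The log2 difference was 0.84 (standard error 0.10, adjusted p = 0.0147 by limma), a 1.79-fold increase, with rank 133 by increase among 11457. An adjusted p under 0.05 was reached by 2.92% of transcript clusters in mesangial cells, 0.0578% in podocytes and 1.29% in endothelial cells. *Osmr* was called higher by the screen in each fit that left out 1 array, with log2 differences of 0.76 to 0.89, but its adjusted p rose to as much as 0.0741, without mutant array B, and was 0.158 with all 18 arrays in 1 fit. With mutant array B and wild type array C left out together it was 0.77 (adjusted p = 0.0729). The smooth muscle and juxtaglomerular sums and the mesangial and podocyte marker sums, which did not overlap between the genotypes, and the called markers *Ehd3*, *Tek*, *Dcn* and *Cldn1*, all given beside *Tslp*, moved with this difference as well, and their part was not tested.

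In endothelial cells *Osmr* was at 350.3, 278.1 and 276.4 in mutant and 154.9, 209.2 and 230.3 in wild type arrays, again without overlap. The log2 difference was 0.62 (standard error 0.17), a 1.53-fold increase that passed the screen (unadjusted p = 0.00621) and not the adjusted threshold (adjusted p = 0.13 by limma). The fold change is near the 1.5 of the screen, and the call was lost without mutant array A (0.50) or without wild type array A (0.45). The mesangial markers summed to 832 to 1067 in mutant and 739 to 844 in wild type endothelial arrays, with 1 of the 4 tested called higher, *Serpine2*, at a log2 difference of 1.27 (adjusted p = 0.111 by limma). The others tested, *Meis1*, *Ptn* and *Tbx18*, lay at 0.04, -0.15 and -0.02. Without a minimum 2 of the 8 mesangial markers were higher in mutants, with a median of -0.13 beside -0.03 for all transcript clusters. The leukocyte sums of mutant arrays A, B and C, 1455, 1036 and 794, had the order of *Osmr*, as did those of wild type arrays, 726, 841 and 913. The part of these cells in the *Osmr* signal was not tested.

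In podocytes the *Osmr* signal was 139.1, 199.5 and 62.3 in mutant arrays and 186.1, 162.6 and 115.6 in wild type arrays. The genotypes overlapped, with a log2 difference of -0.34 (standard error 0.40, adjusted p = 0.733 by limma). Without mutant array C the difference turned to 0.13. That array had the lowest sum of mesangial markers, 1141, against 2965 to 6042 in the other 5 podocyte arrays. Of the 8 mesangial markers, 4 were called lower in mutant podocytes, and the part of mesangial RNA in the *Osmr* signal of podocytes was not tested.

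*Il6st*, the shared gp130 chain, was high in every array and differed little between genotypes. In mesangial cells it was at 2168.6, 2160.2 and 2387.8 in mutant and 1963.5, 1901.4 and 1922.6 in wild type arrays. The groups did not overlap, but the log2 difference of 0.21 (standard error 0.08, adjusted p = 0.196 by limma) is a 1.16-fold change, under that of the screen. The same arrays differed in smooth muscle and juxtaglomerular sums (4654 to 5411 in mutant, 3526 to 3837 in wild type). Their mesangial sums differed too (9019 to 9946 and 11977 to 12859), and the part of these cells was not tested. The endothelial arrays gave 1192.4, 1184.5 and 1037.5 against 980.4, 991.7 and 1003.8, again without overlap, at 0.20 (standard error 0.09, adjusted p = 0.3 by limma). In these arrays *Serpine2*, alone of the mesangial markers, was called higher, as given beside *Osmr*. The leukocyte sums were 794 to 1455 in mutant and 726 to 913 in wild type. Their part was not tested. The podocyte arrays gave 1474.7, 961.4 and 1180.7 against 1467.4, 1542.0 and 1487.1, with mutant array A inside the wild type range and the other two below it, at -0.34 (standard error 0.17, adjusted p = 0.413 by limma). Mutant array A had mesangial markers at 4429, near the wild type podocyte arrays, and arrays B and C had 2965 and 1141; the part of mesangial RNA was not tested.

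**Figure D3:**
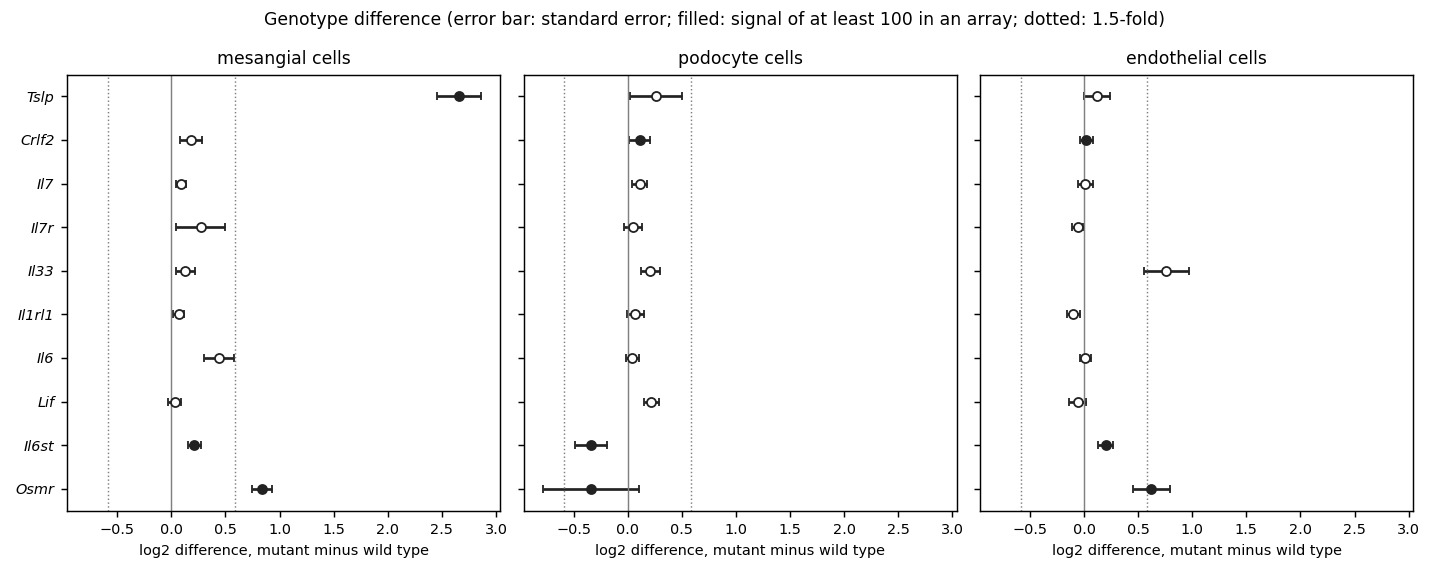
Log2 difference between mutant and wild type arrays (horizontal axis) for the 10 genes in each cell type, fitted without a signal minimum, with the standard error as the bar. Filled points are genes that reached 100 on any of the 6 arrays, and dotted lines mark a 1.5-fold change: *Tslp* (2.66) and *Osmr* (0.84) lie beyond it in mesangial cells, *Il33* (0.76) and *Osmr* (0.62) in endothelial cells, and none in podocytes.

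Beside *Tslp*, whose mesangial difference chose the set and which entered through mutant arrays alone, 1 of the other 2 genes tested in mesangial cells passed the screen, *Osmr*, where the screen called 5.19% of all transcript clusters tested. In endothelial cells 1 of 3 passed, against 3.82% of all, where *Crlf2* had entered through mutant array A alone. In podocytes 0 of 3 passed, against 5.61%. These counts are over genes chosen with results known and support nothing by themselves. Of the 9 genes other than *Tslp*, 4 did not overlap between genotypes in mesangial cells, 3 in podocytes and 3 in endothelial cells, each of them higher in mutants, where 10.4%, 9.60% and 8.34% of all 28856 transcript clusters were higher without overlap. Those of the mesangial cells were *Il7*, *Il6*, *Il6st* and *Osmr*, those of the podocytes *Il7*, *Il33* and *Lif*, and those of the endothelial cells *Il33*, *Il6st* and *Osmr*. The mean log2 signal was higher in mutants for 9 of these 9 genes in mesangial cells, 7 in podocytes and 6 in endothelial cells, beside 55.3%, 61.4% and 40.9% of all transcript clusters. The median log2 difference of the 9 genes was 0.18, 0.07 and 0.01, beside 0.01, 0.03 and -0.03 for all transcript clusters without a minimum. Most of these differences are smaller than 1.5-fold.

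Whether the genotype effect differed from one cell type to another was tested by interaction terms over all 18 arrays, where 4 of the 10 genes passed the signal minimum. At an adjusted p under 0.05, 0.717% of the 13523 transcript clusters differed between podocytes and mesangial cells, 1.07% between endothelial and mesangial cells and 2.11% between endothelial cells and podocytes. For *Osmr* the effect was 1.18 lower in podocytes than in mesangial cells (standard error 0.43, adjusted p = 0.252 by limma) and 0.22 lower in endothelial cells (standard error 0.43, adjusted p = 0.822 by limma). Between endothelial cells and podocytes it was 0.96 higher in the former (standard error 0.43, adjusted p = 0.19 by limma), so it was not shown to be particular to 1 cell type. With 1 array left out, the *Osmr* contrast of podocytes minus mesangial cells ran from -1.55 to -0.71. That of endothelial minus mesangial cells ran from -0.39 to -0.11, and that of endothelial cells minus podocytes from 0.48 to 1.32. For *Il6st* the effect was 0.55 lower in podocytes than in mesangial cells (standard error 0.17, adjusted p = 0.167 by limma) and 0.53 higher in endothelial cells than in podocytes (standard error 0.17, adjusted p = 0.0857 by limma). Without mutant podocyte array A these became -0.71 (adjusted p = 0.0123) and 0.69 (adjusted p = 0.00688). Over all fits without 1 array they ran from -0.71 to -0.4 (adjusted p up to 0.292 by limma) and from 0.38 to 0.69 (up to 0.174). For *Crlf2* the 3 contrasts lay between -0.15 and -0.07, with adjusted p-values of 0.633 to 0.913 by limma.

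Among wild type cells, *Osmr* was highest in mesangial arrays, at 721 ± 66.8 (SD, n = 3), then in endothelial arrays, at 198 ± 38.9 (SD, n = 3), and in podocyte arrays, at 155 ± 35.9 (SD, n = 3). Mesangial cells were 4.73-fold above podocytes (log2 difference 2.24, standard error 0.30, adjusted p = 4.53e-05 by limma) and 3.68-fold above endothelial cells (1.88, standard error 0.30, adjusted p = 0.000168 by limma). Podocytes and endothelial cells, whose ranges overlap, differed by -0.36 (standard error 0.30, adjusted p = 0.397 by limma). An adjusted p under 0.05 with a fold change over 1.5 was found for 13.8%, 16.2% and 20.0% of transcript clusters in these contrasts. *Il6st* followed another order, with 1929 ± 31.6 (SD, n = 3) in mesangial, 1499 ± 38.6 (SD, n = 3) in podocyte and 992 ± 11.7 (SD, n = 3) in endothelial arrays, and no neighbours overlapped. Its mesangial level was 1.94-fold above that of endothelial cells (adjusted p = 1.27e-05 by limma) and 1.29-fold above that of podocytes (adjusted p = 0.0362 by limma), the latter under the fold change asked. Its podocyte level was 1.51-fold above that of endothelial cells (adjusted p = 0.000989 by limma), at the edge of the fold change. Since wild type podocyte arrays carried mesangial markers, the part of mesangial RNA in the podocyte levels was not tested. *Tslp* lay at 25.0 to 43.4 in the wild type arrays, under the minimum in all 9, and no contrast between wild type cell types is given for it.

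With mutant cells included, *Osmr* ran from mutant mesangial to wild type mesangial, mutant endothelial, wild type endothelial, wild type podocyte and mutant podocyte arrays. The ranges of the leading 4 groups do not overlap one another, and those of wild type endothelial, wild type podocyte and mutant podocyte arrays do. For *Il6st* the order was mutant mesangial, wild type mesangial, wild type podocyte, mutant podocyte, mutant endothelial and wild type endothelial, and the neighbours that overlap are the podocyte genotypes and the mutant podocyte and mutant endothelial arrays. Over the 18 arrays, which share the cell types, log2 signals of *Osmr* and *Il6st* had a Pearson's r of 0.739, and those of *Osmr* and *Lif* one of -0.667.

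The other genes of these pathways were taken from lists of known members. By direction, the screen called 2.08% of all transcript clusters tested higher and 3.12% lower in mutant mesangial cells, 1.26% and 4.34% in podocytes, and 2.96% and 0.865% in endothelial cells. Of 10 gp130 ligands, 2 had a signal at which they could be tested in each cell type and 0 were called. Of 8 receptors of the gp130 family, 5 were tested in mesangial cells, with *Osmr* alone called higher, and 5 in endothelial cells, again with *Osmr* alone. In podocytes 6 were tested and 1 was called lower, *Lifr*, the LIF receptor chain, at 305.7, 244.9 and 247.0 in mutant and 564.1, 492.2 and 411.6 in wild type arrays (log2 difference -0.88, standard error 0.16, adjusted p = 0.135 by limma). *Lifr* is higher in endothelial arrays, at 1196.3 to 1607.5, and 7 of 8 endothelial markers were called lower in mutant podocytes, with sums of 762 to 2580 against 4332 to 5754. *Lifr* is also higher in mesangial arrays, at 569.5 to 904.5, and 4 of 8 mesangial markers were called lower, with sums of 1141 to 4429 against 4915 to 6042. In mutant podocytes 2 of 5 smooth muscle and juxtaglomerular markers tested (*Ren1*, *Acta2*) and 2 of 6 tubule and parietal ones (*Cldn1*, *Pax8*) were called higher. The part of RNA from all these cells was not tested. *Il6ra*, the interleukin 6 receptor chain, was at 116.0, 112.1 and 134.8 in mutant and 103.5, 89.3 and 90.9 in wild type mesangial arrays (0.35, standard error 0.11, adjusted p = 0.135 by limma). The smooth muscle, juxtaglomerular and mesangial marker sums differed between these arrays as given beside *Tslp*, and their part was not tested.

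Among 16 genes of the IL7 and common gamma chain family, 4 could be tested in each cell type. Apart from *Tslp*, whose mesangial values are a description, *Il2rg*, the common gamma chain, was called lower in mesangial cells, at a log2 difference of -0.59 (standard error 0.17, adjusted p = 0.129 by limma). Wild type mesangial array C, with the highest *Il2rg* signal, 1224.4, had leukocyte and endothelial sums of 1680 and 7678, and the mesangial markers were lower in mutant arrays, at 9019 to 9946 against 11977 to 12859; their part was not tested. *Il2rg* was also called lower in podocytes, at -1.58 (standard error 0.67, adjusted p = 0.341 by limma), where mutant arrays spanned 43.3 to 358.5 and wild type arrays 266.5 to 436.1. *Il2rg* was higher in the other cells, at 562.7 to 1224.4 in mesangial and 687.3 to 1044.2 in endothelial arrays. In mutant podocytes the endothelial markers summed to 762 to 2580 against 4332 to 5754 in wild type, and the mesangial markers to 1141 to 4429 against 4915 to 6042. The markers called higher in mutant podocytes are given beside *Lifr*. The part of all these cells in the *Il2rg* signal was not tested. In endothelial cells *Il4ra*, the interleukin 4 receptor chain that also serves interleukin 13, rose from 505.7, 445.7 and 444.0 in wild type to 802.9, 684.7 and 657.1 in mutant arrays (0.62, standard error 0.11, adjusted p = 0.0442 by limma). The leukocyte sums of mutant arrays A, B and C, 1455, 1036 and 794, had the same order. Those of wild type arrays A, B and C, 726, 841 and 913, had the reverse order of *Il4ra*. *Serpine2*, alone of the mesangial markers, was called higher in mutant arrays. The part of these cells was not tested. Of 10 type 2 cytokines and receptors, among them *Il4*, *Il5*, *Il13* and *Il25*, 1 could be tested in mesangial cells, 2 in podocytes and 1 in endothelial cells, and 0 were called. Of 16 genes of the IL1 family, 8 were tested in mesangial cells and *Il1r1*, the receptor of interleukin 1, rose, with 540.4, 574.7 and 570.8 in mutant and 344.2, 382.3 and 316.5 in wild type arrays (0.70, standard error 0.10, adjusted p = 0.0226 by limma). The smooth muscle and juxtaglomerular sums were higher in these mutant arrays, at 4654 to 5411 against 3526 to 3837. The mesangial sums were lower, at 9019 to 9946 against 11977 to 12859. *Ehd3*, *Tek*, *Dcn* and *Cldn1* were called as given beside *Tslp*, and the part of these cells was not tested. In podocytes 2 of 8 passed the screen as lower, the signalling genes *Irak4*, at -0.63 (adjusted p = 0.316 by limma), and *Traf6*, at -0.59. *Traf6* reached the minimum in wild type arrays alone and is given without a p-value. The endothelial and mesangial markers were lower as given for *Il2rg*, and the markers called higher are given beside *Lifr*. Their part was not tested. In endothelial cells 0 of 7 were called.

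Of 17 Janus kinase, STAT and feedback genes, 12 were tested in mesangial cells and 0 passed the screen. *Stat3*, the main transducer of gp130, had an adjusted p under 0.05 there, with means of 257 ± 9.50 (SD, n = 3) for wild type and 362 ± 27.0 (SD, n = 3) for mutants (0.49, standard error 0.09, adjusted p = 0.0418 by limma), a 1.41-fold change. The *Stat3* difference was 0.40 (standard error 0.09, adjusted p = 0.0923 by limma) in endothelial cells and 0.13 (standard error 0.12, adjusted p = 0.665 by limma) in podocytes. Its contrast with mesangial cells was -0.09 (adjusted p = 0.757 by limma) for endothelial cells and -0.36 (adjusted p = 0.229 by limma) for podocytes. Of the 13 genes tested in podocytes 0 were called. In endothelial cells, of 11 tested, *Stat2*, a transducer of interferon signals, rose, with 428.3, 451.4 and 344.2 in mutant and 217.3, 163.2 and 202.2 in wild type arrays (1.07, standard error 0.15, adjusted p = 0.0149 by limma). The mesangial arrays differed in smooth muscle and juxtaglomerular sums (4654 to 5411 in mutant, 3526 to 3837 in wild type) and in mesangial sums (9019 to 9946 and 11977 to 12859). *Ehd3*, *Tek*, *Dcn* and *Cldn1* were called there as given beside *Tslp*. The endothelial arrays differed in the range of leukocyte sums (794 to 1455 and 726 to 913), with *Serpine2* alone of the mesangial markers called higher. The part of these cells was not tested.

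Of 16 genes known to respond to gp130 and STAT3, 7 were tested in mesangial cells, 4 of them only because mutant arrays reached 100, so their own median is not given. Over all 16 without a minimum, 15 had a higher mean in mutant mesangial arrays, with a median log2 difference of 0.26 beside 0.01 for all transcript clusters, of which 55.3% were higher. *Ccl2*, a chemokine that draws monocytes, was at 174.3, 163.1 and 146.8 in mutant and 79.6, 56.2 and 57.4 in wild type arrays, a log2 difference of 1.34 (standard error 0.15). *Myc*, a growth regulator, was at 97.5, 135.0 and 100.8 against 53.8, 55.9 and 48.6, a log2 difference of 1.06 (standard error 0.14). Both genes reached the minimum through mutant arrays alone, so their values are a description and no p-value is given. *Socs3*, the feedback inhibitor of gp130, averaged 87.3 ± 20.0 (SD, n = 3) for wild type and 129 ± 2.58 (SD, n = 3) for mutants, at 0.58 (standard error 0.16, adjusted p = 0.104 by limma), just under the fold change of the screen. In podocytes 0 of the 4 tested were called. Of all 16, 13 had a higher mean in mutant podocytes, where 61.4% of all transcript clusters did, with a median of 0.11 beside 0.03. In endothelial cells *Il4ra* alone was called of the 6 tested. Of all 16, 9 had a higher mean in mutant endothelial cells, where 40.9% of all did, with a median of 0.13 beside -0.03. The *Ccl2* signal was 48.1 to 80.3 in podocyte and 51.7 to 61.7 in endothelial arrays, under the minimum in all 12. The mesangial arrays compared here differed in smooth muscle and juxtaglomerular sums (4654 to 5411 in mutant, 3526 to 3837 in wild type) and in mesangial sums (9019 to 9946 and 11977 to 12859), and mutant array B had a leukocyte sum of 2352; their part was not tested.

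**Figure D4:**
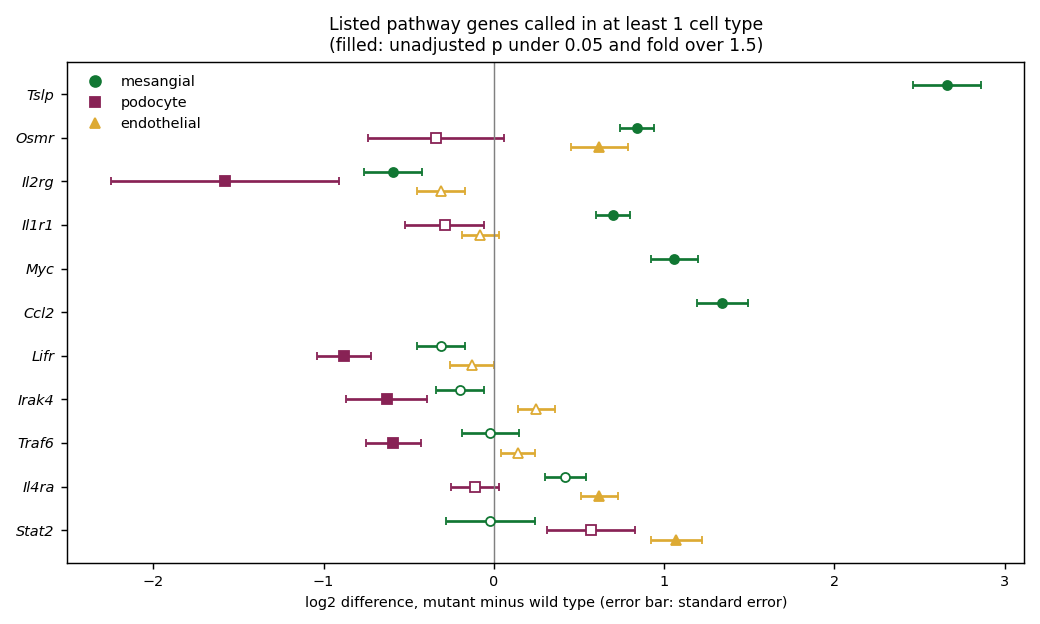
Log2 difference between mutant and wild type arrays (horizontal axis, bar: standard error) of the listed pathway genes called in at least 1 cell type, with circles for mesangial cells, squares for podocytes and triangles for endothelial cells; filled symbols passed the screen, and a cell type without a symbol was under the signal minimum. *Osmr* and *Il1r1* are called higher in mesangial cells, where *Tslp*, *Myc* and *Ccl2* also lie high but reached the minimum in mutant arrays alone, *Osmr*, *Il4ra* and *Stat2* are called higher in endothelial cells, and the podocyte calls are lower, with *Traf6* at the minimum in wild type arrays alone.

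The genes whose log2 signals ran most like those of *Tslp* over the 18 arrays, among 11131 transcript clusters with a single symbol and any array at 100 or above, were *Pmp22* (Pearson's r of 0.951), *Galnt3* (0.951), *Col14a1* (0.939), *Dpep1* (0.937) and *Aldh1a2* (0.93). For *Osmr* they were *Picalm* (0.982), *Ptprk* (0.978), *Man2a1* (0.965), *Fam69a* (0.961) and *Nid1* (0.96). For *Il6st* they were *Tcfec* (0.96), *Myh10* (0.952), *Pla2g4a* (0.948), *Sgpl1* (0.948) and *Adam9* (0.947). For *Il33* they were *Cyp26b1* (0.94), *Nlrc5* (0.893), *Aim1* (0.884), *Rnf213* (0.884) and *Daxx* (0.88). The arrays share their cell types and groups, so these values order genes by likeness over 18 arrays and say nothing of shared control.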

How the data were processed

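RNA of GFP positive cells was amplified by Ribo-SPIA and measured on Affymetrix Mouse Gene ST arrays. The authors deposited a linear intensity per transcript cluster and array, which the sample records ascribe to RMA, and a log2 value that the authors deposited beside it, the log2 intensity minus its median over the 18 arrays, which was not used further. The header names an mm9 annotation. RMA makes the arrays alike in distribution and compresses low signals, so a true absence appears as a low intensity.

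Log2 intensities were fitted per cell type in limma 3.58.1 (lmFit, then eBayes; R 4.3.3), keeping transcript clusters that reached 100 on any of the 6 arrays. The screen is an unadjusted p under 0.05 with a fold change over 1.5, after the paper's methods; adjusted p-values are Benjamini-Hochberg over all transcript clusters tested. Interactions and wild type contrasts came from 1 fit of all 18 arrays over 13523 transcript clusters. The fits were tested on simulated data. Some items of the reporter lines and pathway lists are not reported here. The number of arrays limits the precision. Members, gene lists and tests were chosen with earlier results of these data known. Named genes are the 10 members, listed pathway genes called in any comparison, *Cd2ap*, and the 5 genes of highest correlation with *Tslp*, *Osmr*, *Il6st* and *Il33*. *Stat3*, *Socs3*, *Il6ra* and the named marker genes were chosen after their values were seen. Marker lists of 9 cell types were summed per array; those of fibroblasts gave 318 to 1686 over all arrays (1 of 4 tested called higher in mesangial cells) and those of mast cells and basophils 225 to 372. Alternatives were the signal minimum, all arrays in 1 fit, adjusted p, trend and robust estimation, array medians, repeated quantile normalization and each array left out.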

Additional observations from a re-analysis of the deposited data

How the results depend on the processing

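The counts of the 10 genes called in mesangial cells (2, with *Tslp*, which chose the set) and podocytes (0) did not change under the alternatives run. In endothelial cells the count of 1 became 2 without a signal minimum, and 0 with all 18 arrays in 1 fit, with adjusted p-values or with quantile normalization repeated; over fits that left out 1 array it was 0 to 1. Its gene, *Osmr*, was lost without mutant array A or wild type array A. For the interaction of podocytes and mesangial cells, where the 1 gene counted is *Tslp* and is a description, leaving out 1 array gave 1 to 2 genes, the other being *Il6st* without mutant podocyte array A. For endothelial cells and podocytes (0 genes), subtraction of array medians gave 1, *Il6st*, at 0.63 (adjusted p = 0.0421), and leaving out 1 array gave 0 to 1. Between wild type podocytes and endothelial cells the count of 1 became 0 with array medians subtracted, and was 0 to 1 with 1 array left out (0 without wild type podocyte array B); with medians subtracted *Il6st* lay at 0.57, under 1.5-fold.

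Other values turned sign. *Osmr* in podocytes ran from -0.71 to 0.13 over fits without 1 array (0.13 without mutant array C), and *Crlf2* in endothelial cells from -0.02 to 0.05. The interaction of *Crlf2* between podocytes and mesangial cells ran from -0.15 to 0.04, and that between endothelial cells and podocytes became 0.02 with array medians subtracted. Between wild type podocytes and endothelial cells, *Crlf2* became -0.01 with medians subtracted and ran from -0.01 to 0.06 without 1 array. The interaction of *Il6st* between endothelial and mesangial cells became 0.07 with medians subtracted and ran from -0.05 to 0.05 without 1 array. That of *Tslp* between endothelial cells and podocytes ran from -0.28 to 0.12 (0.12 without mutant podocyte array A). The causes were not tested.

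Over all transcript clusters, the adjusted threshold with the same fold change called 252 in mesangial cells in place of 595, 7 in podocytes in place of 679 and 128 in endothelial cells in place of 433, and leaving out mutant podocyte array A raised the podocyte screen to 1240. Interaction counts over all transcript clusters also moved. The 97 for podocytes and mesangial cells became 44 to 420 with 1 array left out. The 145 for endothelial and mesangial cells became 262 with medians subtracted and 86 to 177 with 1 array left out. The 285 for endothelial cells and podocytes became 970 with medians subtracted, 78 with quantile normalization repeated and 30 to 1867 with 1 array left out. Leaving out mutant mesangial array B and wild type mesangial array C together was chosen after seeing the data. No paired analysis was possible because the labels number the arrays from 1 to 18 and the groups share no number. Other transcript clusters of the members could not be tried, since each has 1. Of the 10 genes, 6 never reached a signal of 100, where arrays compress differences.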
